A study of Mus musculus with 2 samples.

Results

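Transcripts of 47 genes of the lysosome were compared between dendritic cells that lack the microRNA miR-155 and wild-type dendritic cells, both treated with lipopolysaccharide (LPS). The genes were taken by symbol and comprise 14 proteases, among them 12 cathepsins, 8 glycosidases, 9 lipid hydrolases, phosphatases, a thiol reductase and soluble cofactors, 7 membrane proteins, 6 subunits of the proton pump and 3 transcription factors. Of these, 46 had at least 1 probe set that the platform annotation assigns to that gene alone, 94 probe sets in all, among 18193 genes and 34945 probe sets so named. Cd63 had no such probe set in the annotation used here and gets no value. Ctsf (cathepsin F) was below the floor described next on both arrays, which leaves 45 measured members of 11878 measured genes.

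The wild-type group was marrow of C57BL/6J mice and the knockout group marrow of miR-155-/- mice of the same strain, 1 Affymetrix array each. In both, per the labels' protocols, the cells were cultured for 7 days with GM-CSF at 20 ng/ml, a growth factor that yields dendritic cells and macrophages from marrow, and then received medium with LPS at 10 ng/ml. No untreated cells were measured, so these data say nothing of the response to LPS itself. The labels call the cells dendritic cells, but their growth protocol speaks of macrophages; how many mice supplied each array and how long LPS was applied were facts not given in the sources used here.

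Signals below are intensities after quantile normalization, which gives both arrays the same distribution, and differences are knockout minus wild type in log2 units. The floor is the median of all normalized values, 67.6; a gene counts as measured when at least 1 array lies above it, and all 45 measured members lay above it on both. A gene with several probe sets is represented by its brightest. Since each genotype has a single array, replicate error is unknown, no p-value was computed, and every difference describes these arrays. The only error available is the SD among differences of probe sets that share a gene, 0.29 across all such genes and 0.19 across the 25 members with several probe sets above the floor on both arrays. It holds no variation between mice or cultures.

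Mir155hg, the transcript from which miR-155 is processed, had a signal of 1136 in the wild type and 159 in the knockout, so it was lower in the library labelled as knockout. Dendritic cell transcripts such as Cd74, the invariant chain (11584 and 11156), Fscn1 (11740 and 11567) and Itgax (4290 and 5331) were bright on both arrays, but so were the macrophage transcripts Csf1r (9826 and 11268) and Adgre1 (7458 and 8568). The Fscn1 signals are those of its brightest probe set, and its 4 probe sets were all lower in the knockout, from -1.08 to -0.02. The dendritic cell markers Xcr1 and, in the wild type, Flt3 lay below the floor. In such a mixed culture a lower signal from fewer cells of a type and one from less RNA per cell cannot be told apart. The deposited medians were 58.4 and 78.3, and control probe sets for 18S ribosomal RNA had deposited signals of 95.1 to 126.1 in the wild type and 389.2 to 581.9 in the knockout. The part of that difference in the results below was not tested.

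Lysosomes are the acid compartments in which cells digest what they engulf. A proton pump, the V-ATPase, acidifies them, cathepsins and other hydrolases break down proteins, glycans and lipids, and heavily glycosylated membrane proteins line them. In dendritic cells the same enzymes cut antigens into peptides and remove the invariant chain from MHC class II molecules, and maturation by microbial products is known to increase lysosomal acidification. Many lysosomal genes carry in their promoters an E-box with a CACGTG core, the binding sequence of the MiT/TFE factors TFEB, MITF, TFE3 and TFEC.

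The absent microRNA is shown with its seed, the bases 2 to 8 by which it pairs with targets, in capitals, from RefSeq with build GRCm38.p6. Matches to this seed in member transcripts were not searched for, because no transcript sequences were used here.
miR-155-5p: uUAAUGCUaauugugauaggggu

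Promoter windows of RefSeq (GRCm38.p6), from 250 bases before to 50 bases after a transcript start, were held for 39 of the 47 members. They were searched on both strands for 3 nested motifs. The shortest was the core CACGTG. The 7-base form was TCACGTG, which reads as CACGTGA on the other strand. The palindrome TCACGTGA contains both shorter ones. The palindrome was in a window of 7 of 39 members (17.9%), against 1.12% of all 27025 genes with a window and 2.11% of the 9612 measured ones. The 7-base form was in 12 members (30.8%, against 4.29% of all genes and 6.86% of measured ones). The core was in 14 (35.9%, against 8.09% and 11.4%). Of all 32851 windows of this length, 0.974% held the palindrome, 3.77% the 7-base form and 7.15% the core. A match is a description of the letters and not a bound site.

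The windows around the palindrome are printed for the members that have it, with 20 bases on each side, 5′ to 3′ on the gene's strand and the palindrome in capitals, because they show a sequence that occurs in proteases, a glycosidase, a thiol reductase, a membrane channel and the pump. The position is that of the first capital relative to the start. They lie at -13 and 4 in Ctsa (chr2:164833740-164833787 and chr2:164833757-164833804, plus strand), at -99 in Ctsd (chr7:142387899-142387946, minus strand), at -46 in Mcoln1 (chr8:3500453-3500500, plus strand), at -197 in Ifi30 (chr8:70766833-70766880, minus strand), at -4 in Atp6v0d1 (chr8:105566041-105566088, minus strand), at -132 in Atp6v1a (chr16:44139364-44139411, minus strand) and at -228 and -195 in Gla (chrX:134601206-134601253 and chrX:134601173-134601220, minus strand).
Ctsa, first: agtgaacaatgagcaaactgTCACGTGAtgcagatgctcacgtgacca
Ctsa, second: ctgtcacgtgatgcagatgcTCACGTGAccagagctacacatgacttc
Ctsd: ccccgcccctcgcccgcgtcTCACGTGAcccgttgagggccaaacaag
Mcoln1: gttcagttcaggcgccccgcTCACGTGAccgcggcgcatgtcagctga
Ifi30: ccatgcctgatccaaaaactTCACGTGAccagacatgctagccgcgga
Atp6v0d1: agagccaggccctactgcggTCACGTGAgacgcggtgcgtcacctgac
Atp6v1a: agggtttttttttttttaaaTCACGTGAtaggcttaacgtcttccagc
Gla, first: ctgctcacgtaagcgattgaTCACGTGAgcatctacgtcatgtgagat
Gla, second: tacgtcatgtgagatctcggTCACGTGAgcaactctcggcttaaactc

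After quantile normalization most lysosomal transcripts were slightly higher in knockout cells. Of the 45 measured members 33 were higher and 12 lower, 73.3% higher against 51.5% of all measured genes, and the median difference was 0.12 against 0.01 for all. At least 1.5-fold higher were 3 members, Ctsk, Naaa and Lipa, against 4.57% of all genes, and no member was 1.5-fold lower, against 4.1% of all; only Ctsk passed 2-fold, as did 0.572% of all. By the SD between probe sets, 11 members were higher and 2 lower by more than it, where 17% and 15.7% of all genes were, and 32 lay within it.

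Lysosomal transcripts are bright, and bright genes varied less. Among the 3960 brightest measured genes were 40 of the 45 members. Of these 28 were higher (70%) against 52.1% of those 3960 genes, and 2 were at least 1.5-fold higher against 1.97%. No such member was at least 1.5-fold lower, where 66 of those 3960 genes were. By more than the SD between probe sets, 9 of the 40 were higher and 2 lower, against 450 and 383 of the 3960. The middle 50% of members had differences from -0.01 to 0.29, those of all measured genes went from -0.18 to 0.20, and those of the 3960 brightest from -0.13 to 0.16. The members with a mean signal of 5000 or more, a limit chosen after the values were seen, are given apart from the others, with no test: 4 of these 10 were higher, with a median of -0.01, against 29 of the other 35, with a median of 0.16. All 298 measured genes at or above that limit had a median of 0.0028. The highest deposited signals were 15607 on the wild-type and 18373 on the knockout array, and whether the brightest probe sets had reached saturation was not tested.

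**Figure D1:**
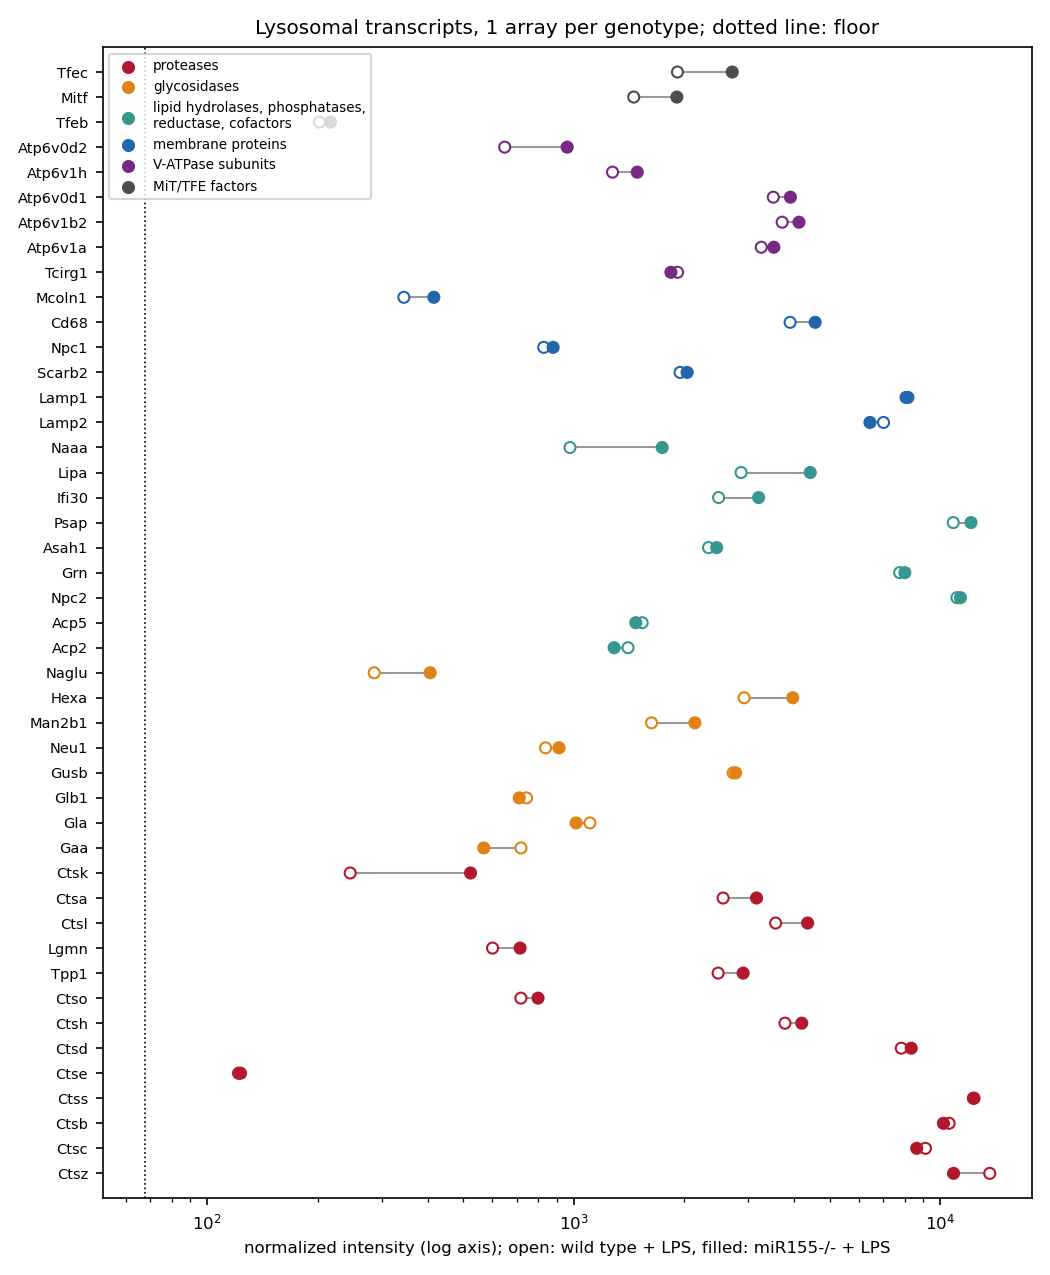
Normalized intensity (log axis) of the 45 measured members in wild-type (open) and knockout (filled) cells, 1 array each, coloured by role and ordered within a role by the difference; the dotted line is the floor of 67.6. Ctsk, Naaa and Lipa have the longest bars to the right, while most bars are short.

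How many members were higher depends on how the arrays are put on 1 scale. The number went from 31 of 45 with loess to 45 in the deposited values, so most were higher under each scaling. In the deposited values all 45 members were higher in the knockout, and the median of all genes was higher by 0.54 too. Relative to the median of all measured genes, 30 of 45 members were higher in the deposited values, 28 with each array centred on its median, 29 with scaling on hybridisation controls and 31 with loess, against 33 after quantile normalization. The median of the members lay above that of all genes by 0.10 to 0.15 under all 9 settings computed.

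Cathepsins and other proteases digest proteins at low pH. Of the 13 measured, 9 were higher and 4 lower, and their median was 0.15. The largest difference was that of Ctsk (cathepsin K), a cysteine protease best known for dissolving bone collagen in osteoclasts, whose signal was 246 in the wild type and 523 in the knockout, 2.13-fold higher (1.09) by its single probe set. Under the other settings its difference went from 1.09 to 1.67. Ctss (cathepsin S), which trims the invariant chain in dendritic cells and is the next coding gene to Ctsk on chromosome 3, had signals of 12383 and 12328 (-0.01). Neighbouring cathepsin genes therefore had the highest difference of all members and one near 0.

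The Ctsk promoter window is printed because no member differed more; the transcribed part after the start is in capitals (chr3:95498960-95499259, plus strand). It holds none of the 3 E-box motifs.
Ctsk: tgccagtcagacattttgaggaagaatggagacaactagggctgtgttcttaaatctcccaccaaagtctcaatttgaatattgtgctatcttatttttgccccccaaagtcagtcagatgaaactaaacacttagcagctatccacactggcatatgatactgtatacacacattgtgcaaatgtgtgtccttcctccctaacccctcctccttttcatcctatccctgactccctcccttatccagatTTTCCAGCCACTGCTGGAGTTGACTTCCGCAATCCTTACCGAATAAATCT

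Ctsk is also an osteoclast gene, as are Acp5, Atp6v0d2 and Tcirg1, so markers of that cell are given beside it. Of 10 osteoclast markers outside the members 6 were measured, with 2 higher, 4 lower and a median of -0.26. Summed signals, here and for the marker lists below, cover all genes of a list that have a probe set. In these sums a value under the floor counts as 67.6, also for genes not measured. For the osteoclast markers they were 3310 in the wild type and 3337 in the knockout. Calcr, Ocstamp and Itgb3, which define mature osteoclasts, were below the floor on both arrays. Acp5, tartrate-resistant acid phosphatase, had signals of 1538 and 1478 (-0.06), and Tcirg1, the pump subunit of the osteoclast membrane, 1921 and 1843 (-0.06). Atp6v0d2, the osteoclast variant of pump subunit d, was higher at 648 and 960 (0.57), with 2 of 2 probe sets. The higher markers were Nfatc1, a transcription factor of osteoclast formation (0.34, with 4 of 5 probe sets higher), and Dcstamp, a cell fusion protein (0.15). The 4 lower ones were Tnfrsf11a (-0.47), Oscar (-0.35) and Mmp9 (-0.26), each with 2 of 2 probe sets lower, and Ckb (-0.25). The osteoclast genes thus did not differ in 1 direction.

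Among macrophage and monocyte markers, 10 of 14 measured were higher, with a median of 0.13 and summed signals of 61174 and 61420. Mrc1, the mannose receptor (138 and 288, 1.06), Ccr2, a chemokine receptor of monocytes (1080 and 1928, 0.84), and Mertk, a receptor for dying cells (318 and 558, 0.81), were at least 1.5-fold higher. For Ccr2 3 of 4 probe sets were higher, and they ran from -0.48 to 0.84. By more than the SD between probe sets, 3 macrophage and monocyte markers were higher and 1, Cd14, was lower (10690 and 7911, -0.43). Of 12 measured dendritic cell markers 8 were lower, with a median of -0.04 and summed signals of 44879 and 41058. By more than that SD, however, 4 were higher and 3 lower. The higher ones were Cd209a (0.40), Flt3 (at least 0.39, above the floor only in the knockout), Dpp4 (0.35) and Itgax (0.31). The lower ones were Irf8 (4551 and 2874, -0.66), Ccr7 (6287 and 4304, -0.55) and Zbtb46 (-0.43). All 6 measured B and plasma cell markers were lower (summed signals 1884 and 641, with only 2 above the floor on both arrays). Among them Ighm, the immunoglobulin heavy chain, was 5.16-fold lower at its brightest probe set, but only 5 of its 8 measured probe sets were lower, and they ran from -3.73 to 0.50. Jchain was 4.71-fold lower, and Mzb1, above the floor only in the wild type, was at least 3.75-fold lower. All 6 measured markers of mast cells and basophils were lower too (3452 and 1989), with only 3 above the floor on both arrays and 2 within the SD between probe sets. Hdc was 1.86-fold lower (2624 and 1411). Mcpt8 and Cpa3, above the floor only in the wild type, were at least 2.68-fold and 2.21-fold lower. Granulocyte markers were lower in 7 of 11 (23388 and 25599), with Ltf, lactoferrin, at least 1.65-fold lower. Of the T and NK cell markers 3 of 9 were measured, 2 of them higher, and Thy1 was 2.17-fold lower. The summed signals of that list, 813 and 710, include 5 genes below the floor on both arrays. The part of these markers in the lysosomal differences was not tested.

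Ctsl (cathepsin L), a cysteine protease that can also degrade the invariant chain, had signals of 3558 and 4352 (0.29). Lgmn, legumain, an asparaginyl endopeptidase that opens antigens and activates cathepsins, had 601 and 714 (0.25). Both differences lay within the SD between probe sets.

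Ctsa (cathepsin A), a serine carboxypeptidase that protects sialidase and β-galactosidase, had 2558 and 3156 (0.30), just past that SD, but its other probe set had a difference of -0.08. Tpp1, a tripeptidyl peptidase, was 2480 and 2901 (0.23), with 2 of 2 probe sets higher. Ctsh (cathepsin H), an aminopeptidase, was 3773 and 4194 (0.15), with 2 of 2 higher, and the widely expressed cysteine protease Ctso (cathepsin O) was 718 and 800 (0.16). All of these were higher in the knockout by small amounts.

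Among the bright cathepsins, Ctsb, Ctsc and Ctsz were level or lower at their brightest probe sets. Ctsb (cathepsin B), an abundant cysteine protease, had signals of 10586 and 10215 (-0.05), and its 5 probe sets ran from -0.05 to 0.56, the highest at a dim probe set of 196 and 288. Ctsc (cathepsin C), which activates serine proteases of granules, had 9127 and 8637 (-0.08), with probe sets from -0.18 to 0.00. Ctsz (cathepsin Z), a carboxypeptidase, was lowest among the proteases at 13668 and 10887 (-0.33).

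For Ctsz the probe sets disagreed: the other 2 had differences of -0.14 and 0.15. Ctsd (cathepsin D), the main aspartic protease, had signals of 7837 and 8344 (0.09). Ctse (cathepsin E), an aspartic protease of endosomes, was dim at 122 and 123 (0.02), and both probe sets of Ctsf were below the floor.

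The glycosidases, which strip sugars from glycoproteins, glycolipids and glycosaminoglycans, were split. Of 8 measured 5 were higher and 3 lower. Their median was 0.07, and -0.01 when only probe sets with a plain _at ending were used. Naglu, which degrades heparan sulfate, was the highest with signals of 286 and 406 (0.51, 1.42-fold). Hexa, the α subunit of β-hexosaminidase, was next at 2919 and 3963 (0.44, 1.36-fold). Each was measured by 1 probe set, and both differences were larger than the SD between probe sets.

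Man2b1, lysosomal α-mannosidase, had signals of 1631 and 2143 (0.39), but the other probe set gave -0.04. Neu1, the sialidase, was 838 and 912 (0.12), with 2 of 2 probe sets higher. Gusb, β-glucuronidase, differed little at 2725 and 2768 (0.02), as did Glb1, β-galactosidase, at 744 and 711 (-0.07).

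The 2 lowest glycosidases had probe sets of opposite sign. Gaa, acid α-glucosidase that degrades glycogen, was 718 and 568 (-0.34) at its brightest probe set, a type that can cross-hybridise by its _x_at ending, and 0.18 at the other. Gla, α-galactosidase, was 1108 and 1015 (-0.13) at one and 0.37 at the other. No direction can be given for either.

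Lipid hydrolases supplied 2 of the 3 members past 1.5-fold. Naaa, an acid amidase that degrades palmitoylethanolamide, an anti-inflammatory lipid, had signals of 977 in the wild type and 1745 in the knockout, 1.79-fold higher (0.84). Its second measured probe set, at 522 and 913, gave 0.81. Over the settings computed the difference went from 0.82 to 1.43. Lipa, lysosomal acid lipase, which frees cholesterol and fatty acids from lipoproteins, had 2864 and 4424, 1.54-fold higher (0.63). Its 3 probe sets were all higher, at 0.25, 0.63 and 0.89, and the 0.25 and 0.89 came from those with a plain _at ending (2321 and 2754, and 401 and 744).

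The promoter of Naaa is printed because its measured probe sets gave nearly the same difference (chr5:92278132-92278431, minus strand), with the transcribed part in capitals. None of the 3 motifs occurred in it or in that of Lipa.
Naaa: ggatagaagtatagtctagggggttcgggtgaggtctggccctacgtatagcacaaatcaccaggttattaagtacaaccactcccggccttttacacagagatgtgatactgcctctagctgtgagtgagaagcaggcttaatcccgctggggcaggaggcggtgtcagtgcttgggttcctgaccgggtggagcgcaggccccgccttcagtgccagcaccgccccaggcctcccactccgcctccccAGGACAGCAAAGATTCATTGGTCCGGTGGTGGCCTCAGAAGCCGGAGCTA

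Asah1, acid ceramidase and a relative of Naaa, differed little, with signals of 2334 and 2458 (0.07). Ifi30, the thiol reductase GILT that opens disulfide bonds of antigens, was 2486 and 3198 (0.36, 1.29-fold) by 1 probe set. The acid phosphatase Acp2 was 1408 and 1290 (-0.13), with 2 of 3 probe sets lower. Thus of the 2 acid phosphatases neither was higher.

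The soluble cofactors were among the brightest transcripts of all. Psap, the precursor of the saposins that present lipids to hydrolases, had signals of 10867 and 12147 (0.16), with 2 of 2 probe sets higher. Npc2, which carries cholesterol out of the lysosome, had 11121 and 11367 (0.03), with probe sets from -0.12 to 0.20. The 0.20 came from a dim probe set above the floor only in the knockout (13 and 78), and the remaining ones gave -0.12 and -0.04. Grn, progranulin, was 7758 and 8015 (0.05), with 3 of 3 higher. The 3 cofactors lay within the SD between probe sets, and over all 9 genes of the lipid hydrolase and cofactor group 7 were higher, with a median of 0.07.

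Of the 6 measured membrane proteins 4 were higher and 2 lower, the median was 0.07 and none passed the SD between probe sets. Lamp1, a main structural glycoprotein, had signals of 8171 and 8076 (-0.02), and Lamp2, needed for fusion with autophagosomes, 7010 and 6437 (-0.12), with 3 of 4 probe sets lower. Cd68, the macrophage member of that family, was 3898 and 4562 (0.23).

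Npc1, which exports cholesterol together with Npc2, was 829 and 879 (0.09). Scarb2, the receptor that carries β-glucocerebrosidase to lysosomes, was 1952 and 2041 (0.06), with its other probe set at -0.17. Mcoln1, a calcium channel, was 344 and 415 (0.27), with probe sets from -0.23 to 0.27.

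Of the 6 V-ATPase subunits 5 were higher and Tcirg1 was lower, and the median was 0.15. Atp6v0d2, the variant of subunit d that osteoclasts and activated macrophages express, was the highest at 648 and 960 (0.57, 1.48-fold), and its second probe set gave 0.54. The common variant of the same subunit, Atp6v0d1, had signals of 3507 and 3905 (0.16). The differences of the pair were 0.57 and 0.16, and no test of their difference was possible with 1 array per genotype.

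Among the cytosolic V1 subunits, the catalytic Atp6v1a was 3252 and 3518 (0.11, with 2 of 2 probe sets higher). Atp6v1b2, its partner in the hexamer, was 3708 and 4120 (0.15, with 4 of 4 higher, of which 2 were above the floor only in the knockout). Atp6v1h, which regulates coupling, was 1277 and 1492 (0.22, with 2 of 2 higher). Each of these lay within the SD between probe sets.

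All 3 transcription factors of the MiT/TFE family were higher. Tfec, a member found mainly in macrophages and related cells, had signals of 1920 in the wild type and 2709 in the knockout (0.50, 1.41-fold) by 1 probe set. Mitf, a regulator of pigment cells, mast cells and osteoclasts, had 1459 and 1913 (0.39, 1.31-fold). Its second probe set was above the floor only in the knockout, with a difference of at least 0.48. Tfeb, the member best known for the lysosomal programme, was dim and close, at 202 and 217 (0.10), and their relative Tfe3, outside the members, was at 769 and 769 (0.00).

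**Figure D2:**
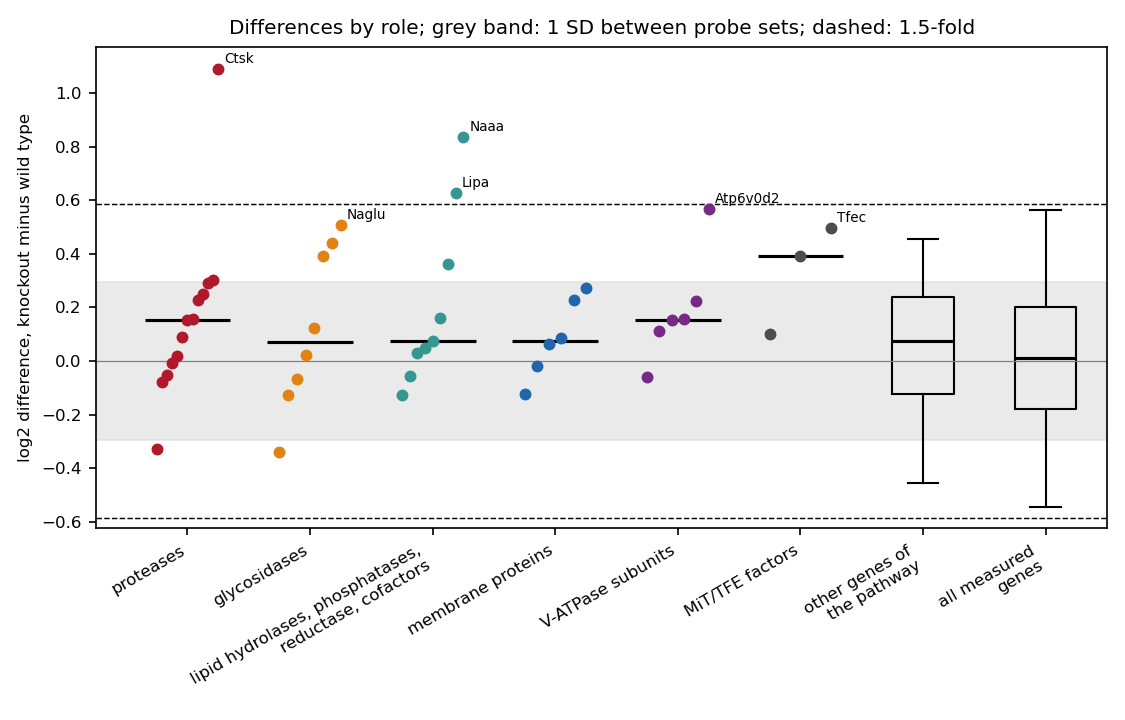
Log2 differences, knockout minus wild type, of each measured member by role (points, with the median as a bar), beside boxes for the 122 other measured lysosomal genes and all 11878 measured genes (box, quartiles and median; whiskers, 5th to 95th percentile). The grey band is 1 SD between probe sets (0.29) and the dashed lines mark 1.5-fold; Ctsk, Naaa and Lipa lie above the upper line and no member lies below the lower one.

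The 4 functional classes set side by side differed little in their medians: 0.15 for proteases, 0.07 for glycosidases, 0.07 for membrane proteins and 0.15 for the pump. Between the highest and lowest member the proteases spanned -0.33 to 1.09, the glycosidases -0.34 to 0.51, the membrane proteins -0.12 to 0.27 and the pump subunits -0.06 to 0.57. The proteases and glycosidases thus held both the lowest members and some of the highest, and the membrane proteins had the smallest distance from lowest to highest. With averaged probe sets the medians were 0.16, 0.15, 0.03 and 0.16, so that the glycosidases lay above the membrane proteins.

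**Figure D3:**
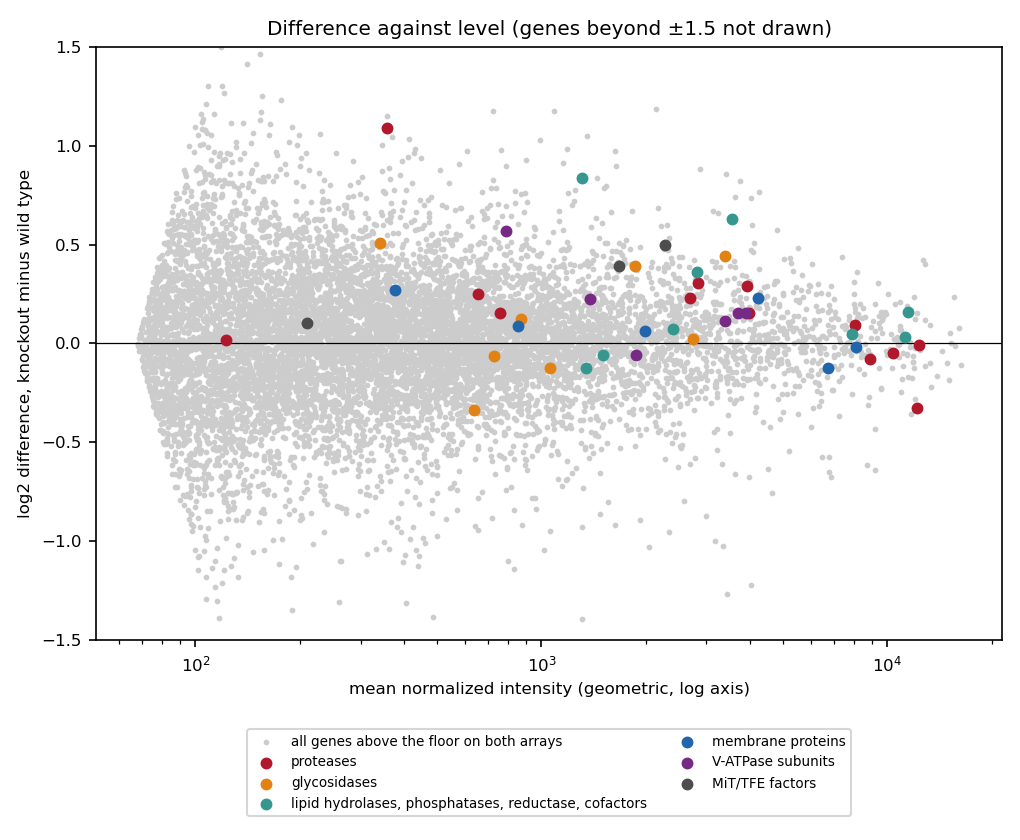
Log2 difference against mean normalized intensity (log axis) for the 10355 genes above the floor on both arrays (grey; 8 lie beyond the axis limits) and the measured members, coloured by role. Members with a mean of 5000 or more lie between -0.33 and 0.16, while those above 0.5 have lower means.

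Probe sets of a gene are repeated measurements within 1 RNA sample. Of the 86 measured probe sets of members 60 were higher (69.8%), with a median of 0.14, against 50.9% and 0.01 for all 20607 measured named probe sets. The 60 include probe sets of Mitf, Atp6v1b2 and Npc2 that were above the floor only in the knockout and can only count as higher. In 12 of the 26 members with several measured probe sets, all had the same direction. Naaa, Lipa, Atp6v0d2, Atp6v1a, Atp6v1b2, Atp6v1h, Mitf, Tpp1, Ctsh, Psap, Grn and Neu1 were those, all of them higher. Mitf is among them only through the probe set above the floor in the knockout alone. The share of all genes whose probe sets had the same direction was not computed, so nothing is concluded from these counts. None of the lower members with several probe sets had all of them lower, but Ctsc missed this only by a probe set at 0.00.

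**Figure D4:**
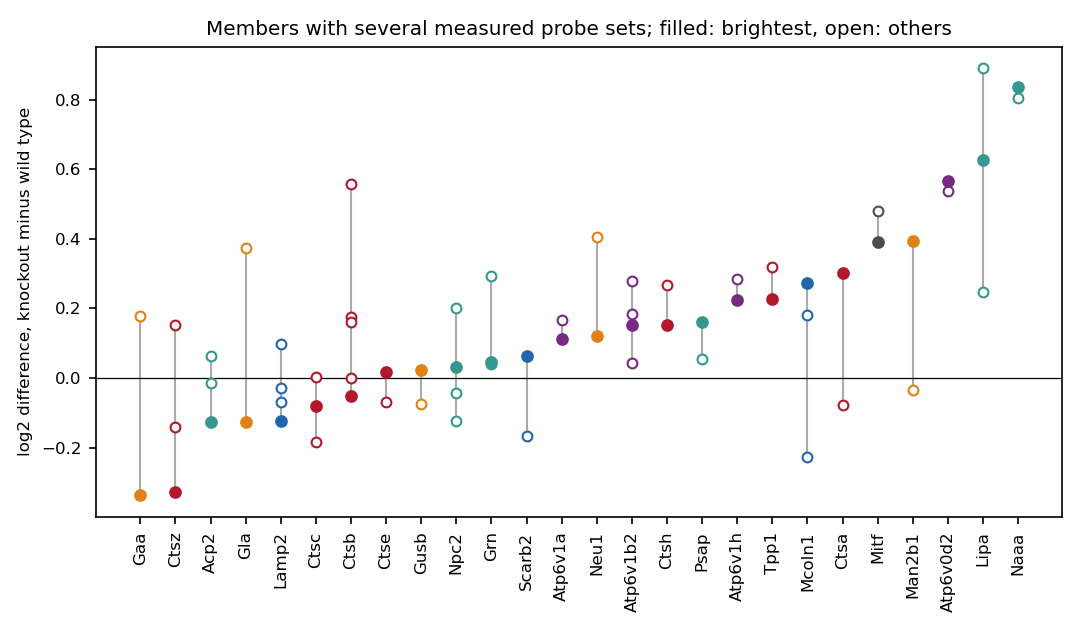
Log2 difference of every measured probe set of the 26 members with several, ordered by the brightest probe set (filled; others open) and coloured by role as in the other plots. Both Naaa and both Atp6v0d2 probe sets lie close together, whereas those of Gaa, Ctsz, Gla, Mcoln1 and Man2b1 lie on both sides of 0.

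Members with and without the E-box palindrome in their window are set side by side, with no test. The 7 with it had a median of 0.16 (6 higher, from -0.13 in Gla to 0.36 in Ifi30), and the 30 other measured members with a window had a median of 0.11 (20 higher). For the 7-base form 66.7% of 12 members with it and 72% of 25 without it were higher, and for the core 69.2% of 13 and 70.8% of 24. These shares ran the other way, but the medians did not. The medians with and without the motif were 0.13 and 0.12 for the 7-base form and 0.16 and 0.11 for the core. Among all measured genes the 203 with the palindrome had a median of 0.07 with 60.6% higher, and the 9409 without it one of 0.01 with 51.3% higher. The shares of all measured genes that were higher were 57.4% with and 51.1% without the 7-base form, and 55.9% and 51.0% for the core. Ctsk, Naaa, Lipa and Tfec had none of the 3 motifs in the windows searched, and Naglu had the core and the 7-base form. No window was held for Atp6v0d2.

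Beyond the members, 147 other genes of lysosomes, their sorting and autophagy were listed, of which 122 were measured. Of these 74 were higher and 48 lower (60.7% higher, against 51.5% of all measured genes), with a median of 0.08. Past 1.5-fold, 5 of the 122 were higher and 1 was lower, where 4.57% and 4.1% of all measured genes were. The median had the sign of that of the members and was smaller.

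In the list of other lysosomal proteases 4 of 5 measured genes were higher. Among these Pcyox1, an oxidase that degrades prenylcysteines, is not a protease. It was the highest of the list at 689 and 1166 (0.76), with 2 of 2 probe sets higher. Prcp, a carboxypeptidase, was 596 and 686 (0.20), with only 1 of 3 probe sets higher. Dpp7, a dipeptidyl peptidase, was 462 and 742 (0.68), with 3 of 3. Scpep1, a serine carboxypeptidase, was 3945 and 5869 (0.57), with 2 of 2, and Ctsw, a cathepsin of cytotoxic lymphocytes, was above the floor only in the wild type and at least 1.26-fold lower. Their inhibitors were lower in 5 of 8 measured genes, with a median of -0.10. Cystatin C (Cst3) had signals of 11592 and 10689 (-0.12), cystatin F (Cst7), which inhibits cathepsin C, 1346 and 1099 (-0.29), and Serpinb9, an inhibitor of granzyme B, was the lowest at 2680 and 1949 (-0.46, with 1 of 2 probe sets lower). Serpinb1a was the highest at 154 and 186 (0.28), with its other probe set at -0.23.

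Other subunits and accessory proteins of the pump were higher in 9 of 13 measured genes, with a median of 0.12. Atp6v1g1, a subunit of the peripheral stalk, was 3270 and 5551 (0.76, 1.70-fold), with 2 of 2 probe sets higher. Atp6v1e2, a variant known from testis, was the lowest at 146 and 103 (-0.50). The bright subunits Atp6v0e (5046 and 5005) and Atp6v1e1 (5235 and 5456) had differences of -0.01 and 0.06, but the other measured probe set of Atp6v1e1 gave -0.96.

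Other glycosidases and sulfatases were split, 6 higher and 7 lower, with a median of -0.02; Sgsh, a heparan sulfatase, was above the floor only in the knockout and at least 1.55-fold higher, with 1 of 2 probe sets, and Galc, which degrades galactosylceramide, was the lowest at 317 and 236 (-0.42). Among 9 other lipid and nucleic acid hydrolases and cofactors 6 were higher, with a median of 0.16. Dnase2a, the acid DNase, was the lowest of the pathway genes at 148 and 70 (-1.08), where the knockout signal lay close to the floor of 67.6, and Ppt1, a palmitoyl thioesterase, the highest in its list at 419 and 534 (0.35).

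Of 22 other membrane proteins and transporters 15 were higher, with a median of 0.10 and none past 1.5-fold; the cation channel gene Mcoln2 (833 and 1135, 0.45) was the highest, and Slc15a3, a peptide transporter (7100 and 5793, -0.29), and Tmem175, a proton and potassium channel (161 and 132, -0.29), were the lowest. In the sorting list 13 of 21 were higher, with a median of 0.05, from Ap1b1, an adaptor subunit (329 and 498, 0.60), to Vps39 of the HOPS complex (486 and 348, -0.48, with 1 of 2 probe sets lower). Regulators of the MiT/TFE factors were higher in 11 of 17, with a median of 0.07, from Fnip2 (970 and 1346, 0.47) to Rptor (384 and 293, -0.39, with its other probe set at 0.37). Autophagy genes were level, 7 higher and 7 lower with a median of 0.00, from Atg16l1 (391 and 476, 0.28) to Gabarapl2 (930 and 627, -0.57, with 2 of 2 lower).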

How the data were processed

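The authors deposited 1 table of linear signal intensity for 45101 Affymetrix probe sets on 2 arrays, as the file headers and the values show. Their algorithm and scaling were details not given in the sources used here. Column medians differed by 34.1%, above the limit of 10% set for it, so the 64 controls were dropped and the other 45037 probe sets were quantile normalized as log2 intensity, and values under the median were set to it as a floor. Names came from the platform annotation: 34945 probe sets named 1 gene and 932 several, and 9160 were unnamed here. Where a gene had several probe sets, the brightest on average stood for it. Of the 11878 genes measured, 10355 were above the floor on both arrays. Genes named were all members, and of the other lists the highest, the lowest and those at least 1.5-fold different, up to 4 per pathway list; of marker lists, those at least 1.5-fold different, up to 3 per list. Others, chosen after their values were seen, are Cst3, Cst7, Atp6v0e, Atp6v1e1, Scpep1, Prcp, Tfe3 and the dendritic cell, osteoclast and macrophage markers below 1.5-fold.

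The members and lists were chosen with earlier results of these data known, and list membership came from general knowledge. The number of arrays, 1 per genotype, limits the precision, and no test between genotypes was made. The steps were tested on simulated data. Alternatives were other scalings, floors, probe set rules and a 2-fold rule. Python 3.11.15, pandas 2.3.3, numpy 2.4.6 and statsmodels 0.14.6 (lowess, span 0.3) were used.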

Additional observations from a re-analysis of the deposited data

How the results depend on the processing

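Scaling decided most. In the deposited values with no scaling, the number of members at least 1.5-fold higher was 28 in place of 3, and the median difference was 0.69 for members, 0.70 for cathepsins and other proteases, 0.66 for glycosidases, 0.68 for lysosomal membrane proteins and 0.70 for V-ATPase subunits, where the median of all measured genes was 0.54. The members at least 1.5-fold higher numbered 6 with centring on the median and 10 with scaling on the hybridisation controls, where the medians of all genes were 0.14 and 0.23, and 43.5%, 7.63% and 12.2% of all measured genes passed that fold in these 3 settings. At 2-fold 1 member was higher. With no floor 1 member, the dim Ctsf, was at least 1.5-fold lower, as were 13.5% of all genes. With loess, a floor at the 75th percentile, averaged probe sets or plain _at probe sets the counts were 3, 3, 3 and 2 higher, against 4.62%, 2.10%, 3.57% and 4.62% of all genes, and 0 lower, against 3.99%, 2.11%, 3.60% and 4.38%. Ctsk, Naaa and Lipa stayed higher under the alternatives to scaling, floor and probe set. Lipa was 0.25 when only plain _at probe sets were used. No paired analysis was possible because each genotype has 1 array.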
